A study of Mus musculus with 6 samples.

Results

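The interleukin-6 (IL-6) family genes were followed in neonatal mouse cardiomyocytes with a hairpin against Gdf11, whose product is a secreted growth factor related to myostatin. The group holds 10 genes chosen by name among the 54532 genes of the deposited table. It and the gene lists used below were chosen with earlier results of these data known, so their counts are descriptive. Of these, 5 encode ligands (Il6, Il11, Lif, Clcf1 and Ctf1), 4 encode receptor chains (Il6ra, Il6st, Lifr and Osmr) and Socs3 encodes the feedback inhibitor. RNA-seq libraries of 3 samples with short hairpin RNA against GDF11 (sh-GDF11, here shGDF11) were compared with 3 samples carrying the control hairpin (sh-nc, called sh-Vector in the treatment protocol). Both groups were primary ventricular cardiomyocytes from C57BL/6 pups (C57BL/6J in the growth protocol) isolated at 1 day of age, and both received their hairpin at a multiplicity of infection of 200, with RNA taken 48 h later. The labels do not say whether the numbers 1 to 3 mark separate cultures or separate hairpins, so the p-values reflect nothing more than the spread among these libraries, and that spread may be technical.

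Cytokines of this family bind a ligand-specific receptor and then gp130, the shared signalling chain encoded by Il6st. IL-6 binds the chain encoded by Il6ra and IL-11 its own alpha receptor, whereas LIF, cardiotrophin-1 (Ctf1) and cardiotrophin-like cytokine (Clcf1) use gp130 paired with the LIF receptor, and oncostatin M uses gp130 paired with the chain encoded by Osmr. The receptors activate JAK kinases and the transcription factor STAT3, and SOCS3 binds gp130 and JAKs to end the signal. In the heart, cardiotrophin-1 and LIF are known as growth and survival factors of cardiomyocytes, and IL-6 and IL-11 as cytokines released by stressed cardiac cells, fibroblasts among them.

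Reads assigned to genes numbered 15267083 to 16152910 in the 6 libraries. Gdf11 itself was at 2.76, 2.30 and 2.31 FPKM (fragments per kilobase of gene, scaled to the depth of the library) in the control libraries 1 to 3 and at 0.614, 0.601 and 0.778 FPKM in the shGDF11 libraries (log2 fold change -1.34; limma adjusted p = 0.000794). All cardiomyocyte markers were detected, led by Myh6 and Tnnt2, which were not called. The summed level of these markers was 3560 to 4015 FPKM in control and 3249 to 3495 FPKM in shGDF11 (4 of 8 lower and 1 higher). Markers of other cell types were present as well. Endothelial markers (led by Cdh5 and Pecam1) summed to 65.5 to 70.3 and 45.3 to 48.7 FPKM, with 5 of 7 lower. Macrophage markers (led by Cd68, which was not called, and C1qb) summed to 54.5 to 62.4 and 41.9 to 47.2 FPKM, with 3 of 8 lower. Smooth muscle and pericyte markers (led by Cnn1 and Pdgfrb) summed to 55.6 to 69.8 and 39.8 to 42.2 FPKM, with 3 of 6 lower. Cnn1 went from a mean of 27.4 to 10.6 FPKM, the largest change in FPKM among the 6. Cspg4 and Myh11, named after their values were seen, were the other falls. Pdgfrb, Rgs5 and Notch3 were not called, and their groups overlapped. Fibroblast markers (led by Col1a1 and Postn) summed to 256.4 to 308.5 and 321.4 to 333.6 FPKM, with 2 of 8 higher. These 2, named after their values were seen, were Col1a2 and Ddr2. The other 6 were not called, and of them Pdgfra and Tcf21 had lower means in shGDF11. Of 4 epicardial markers (led by Wt1 and Msln, neither called) 1 was higher, and 2 without control replicate 3. The 1 higher, named after its values were seen, was Upk3b. Of 7 markers of other leukocytes 1, S100a8, passed the filter, with 1 to 14 reads, and was not called. Itgam, a myeloid integrin just under the filter and not tested, had 49 to 59 reads in control and 18 to 32 in shGDF11, without overlap, and all 6 erythroid markers (led by Alas2) lay below the filter. No marker was at 0 in all 6 libraries, but Cd3e, which defines T cells, had 1 read in all. Without 1 library the cardiomyocyte falls were 1 (control replicate 2, shGDF11 replicate 2 or shGDF11 replicate 3), 2 (control replicate 3 or shGDF11 replicate 1) or 3 (control replicate 1), and the rises 2 (control replicate 1) or 0 (any other). The smooth muscle falls were 1 without control replicate 2 or shGDF11 replicate 1, and the fibroblast rises were 1 without any 1 shGDF11 library. Ribosomal RNA genes took 0.298% to 0.319% of reads in control and 0.47% to 0.502% in shGDF11. The part of these shifts in the results on the family was not tested.

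With the Gdf11 hairpin 3 of the 5 ligand genes were called lower, 1 of them (Clcf1) only narrowly, and 2 of the 4 receptor genes, those of gp130 and the LIF receptor, were called higher. The test was limma on log2(FPKM + 0.5) for genes averaging 0.5 FPKM or more, and calls needed an adjusted p (Benjamini-Hochberg, over all genes tested) under 0.05. Of the 10 family genes 9 were tested, and limma voom, which works on reads and called 33% of all genes, made 3 lower and 2 higher calls among them as well. Lower were 3 ligand genes (Il6, Lif and Clcf1) and higher were 2 receptor genes (Il6st and Lifr). Ctf1, Il6ra, Osmr and Socs3 were not called, and Il11 lay below the filter on low values. The background was high, since 27.6% of the 15418 genes tested were called, 13.1% as lower and 14.4% as higher, and the family's 5 of 9 (55.6%) is to be read against it. After rescaling to TPM 66.3% of all called genes were higher, against 52.4% here. The median log2 fold change of the 9 family genes was -0.28, against 0.01 over all genes tested. Leaving out 1 shGDF11 library lowered the total of called genes from 4253 to 2720 (replicate 1), 2328 (replicate 2) or 2529 (replicate 3). In bulk RNA, fewer cells of a type and less RNA per cell cannot be told apart.

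**Figure D1:**
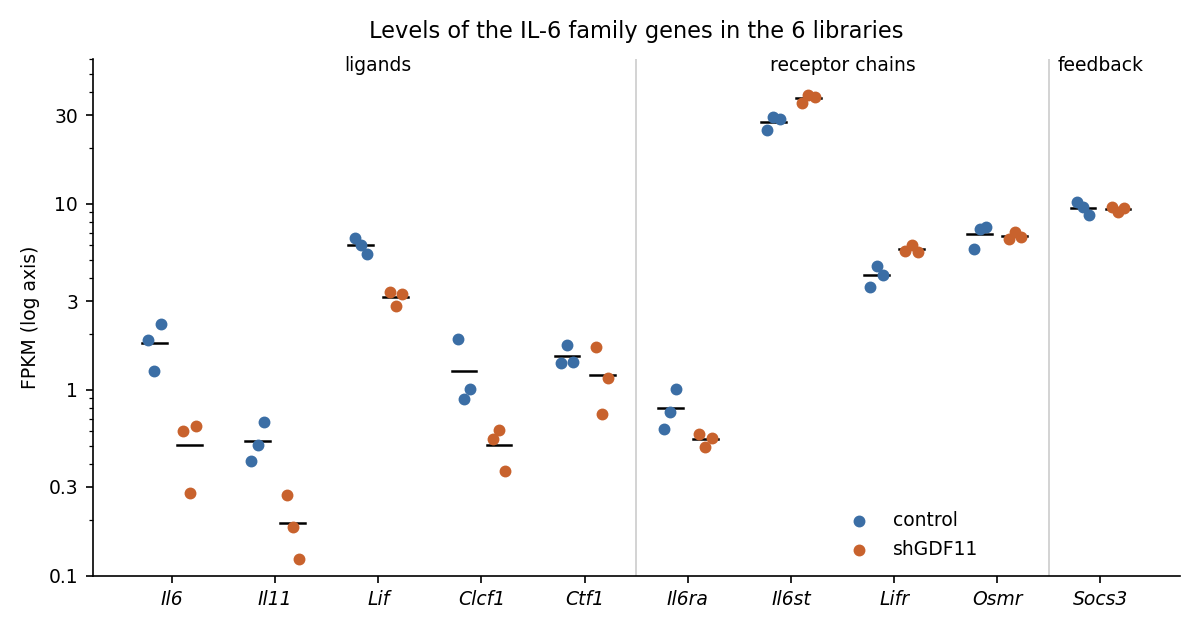
Level of each of the 10 family genes in FPKM on a log axis, with 1 point per library (control blue, shGDF11 orange) and the group mean as a black line. The groups do not overlap for Il6, Il11, Lif, Clcf1, Il6ra, Il6st and Lifr, and overlap for Ctf1, Osmr and Socs3.

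Il6, the founding cytokine of the family, showed the largest fall of the tested family genes. The gene (ENSMUSG00000025746) lies on the plus strand of chromosome 5 at 30013114 to 30019981 of GRCm38, and no annotated exon of another gene overlaps its exons. Its level was 1.86, 1.26 and 2.25 FPKM in control and 0.602, 0.277 and 0.638 FPKM in shGDF11. Each shGDF11 library was below each control, and the shGDF11 mean was 28.2% of control (1.79 ± 0.497 against 0.505 ± 0.199 FPKM; here and below ± on a level is the SD over n = 3). These values rest on few reads, 51 to 89 in control and 11 to 25 in shGDF11. The log2 fold change was -1.18 ± 0.226 (SE; limma adjusted p = 0.00989), and -1.85 by limma voom on reads, which the added 0.5 FPKM does not damp. An exact two-sided permutation test on the FPKM values gave p = 0.1, the smallest possible with 3 against 3, as it did for each family gene whose groups did not overlap.

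Lif, the leukaemia inhibitory factor gene and the most abundant ligand gene of the 5 in control, fell. It lies on the plus strand of chromosome 11 at 4257557 to 4272514, with no overlapping exon of another gene. Its level was 6.55, 5.97 and 5.38 FPKM in control and 3.34, 2.81 and 3.28 FPKM in shGDF11, from 382 to 448 and 200 to 239 reads. The groups were well apart, and shGDF11 stood at 52.6% of control. The log2 fold change was -0.83 ± 0.0999 (SE; limma adjusted p = 0.00171).

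Clcf1, which encodes cardiotrophin-like cytokine factor 1, was called only narrowly. The gene lies on the plus strand of chromosome 19 at 4214238 to 4223490. A same-strand gene, AC109138.7, shares 8.17% of its exon bases. Its level was 1.89, 0.889 and 1.01 FPKM in control and 0.541, 0.608 and 0.367 FPKM in shGDF11. The groups did not overlap, but control replicate 1 stood well above the other controls. On the log2 scale it fell by 0.77 ± 0.237 (SE), and limma gave an adjusted p of 0.0497. By limma voom the log2 fold change was -1.25 (adjusted p = 0.0125). The call was lost without any 1 of the 6 libraries (limma adjusted p from 0.0522 to 0.14), and without control replicate 1 the log2 fold change was -0.53.

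Il11, a cytokine known for its part in fibroblast activation, had a mean of 0.361 FPKM over the 6 libraries and was not tested. The gene spans 4772373 to 4782857 of chromosome 7, minus strand, in the deposited table. It had 13, 17 and 22 reads in control and 9, 6 and 4 in shGDF11, so all shGDF11 libraries were below all controls. The ratio of summed reads, scaled by depth, was 0.364 (95% exact interval 0.203 to 0.625, counting error only). With no filter on low values, it fell by 0.57 on the log2 scale (limma adjusted p = 0.076).

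Ctf1, the gene of cardiotrophin-1, was the ligand gene whose groups overlapped. It lies on the plus strand of chromosome 7 at 127712736 to 127718192, and 4.77% of its exon bases lie opposite Ctf2. The controls were at 1.40, 1.74 and 1.41 FPKM and the shGDF11 libraries at 1.70, 0.737 and 1.16 FPKM. The shGDF11 libraries thus spanned a wider range than the controls, with replicate 1 among the highest values and replicate 2 the lowest. The log2 fold change was -0.28 (95% interval -0.79 to 0.23; limma adjusted p = 0.367).

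The starts of the ligand genes that stood lower are shown because 3 of them share a motif. The 250 bases before the RefSeq start (GRCm38.p6) were searched on both strands, in 11 windows of 9 family genes; Clcf1 had no window. The AP-1 motif TGANTCA was in 3 of the 11 windows, 1 each of Il6, Lif and Il11, and in no other family gene. Of 32851 windows of all genes 6.75% held it. Il6 and Lif also held the NF-kB consensus, found in 7.25% of all windows. AP-1 and NF-kB are transcription factors of the stress and cytokine response. In the sequences the capitals mark the AP-1 and NF-kB matches, in the order AP-1 then NF-kB where both are present. The windows are chr5:30012864-30013113 (plus strand) for Il6, chr11:4257318-4257567 (plus) for Lif and chr7:4778142-4778391 (minus) for Il11, the second of its RefSeq starts. That start of Il11 lies inside the gene model of the deposited table. The Il11 window at the edge of the gene model, chr7:4782858-4783107, held no AP-1 match. The windows of Lifr, chr15:7129322-7129571 and chr15:7140292-7140541 (plus), and of Osmr, chr15:6874314-6874563 (minus), also lay inside the gene models. For these receptor genes the bases before the edge of the gene model were thus not searched.
Il6: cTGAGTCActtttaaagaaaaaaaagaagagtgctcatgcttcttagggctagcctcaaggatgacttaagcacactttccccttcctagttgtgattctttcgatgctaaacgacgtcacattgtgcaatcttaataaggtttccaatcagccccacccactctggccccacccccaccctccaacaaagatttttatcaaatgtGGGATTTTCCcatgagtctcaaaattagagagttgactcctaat
Lif: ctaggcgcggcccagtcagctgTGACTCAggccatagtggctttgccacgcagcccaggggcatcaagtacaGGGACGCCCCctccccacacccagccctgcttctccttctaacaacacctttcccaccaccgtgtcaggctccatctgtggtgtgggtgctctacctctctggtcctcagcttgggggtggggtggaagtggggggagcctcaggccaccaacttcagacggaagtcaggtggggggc
Il11: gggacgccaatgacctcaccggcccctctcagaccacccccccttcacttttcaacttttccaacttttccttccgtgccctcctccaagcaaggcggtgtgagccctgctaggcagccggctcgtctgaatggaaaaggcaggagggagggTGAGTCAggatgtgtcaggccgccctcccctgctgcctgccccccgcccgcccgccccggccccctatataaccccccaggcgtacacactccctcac
The AP-1 match began 249 bases before the start in Il6, 228 in Lif and 98 in Il11, and the NF-kB match 44 bases before it in Il6 and 178 in Lif. The STAT motif TTCNNNGAA (7.02% of all windows) was found in 1 family gene, Socs3, at 154 bases before a RefSeq start that lies inside the gene model of the deposited table. TTNNGNAA, bound by C/EBP factors (36.8% of all windows), was in Il6 and Il6ra, and ACGTG or GCGTG, the core bound by HIF (38.6%), in Ctf1, Il6ra, Lif and Lifr, overlapping no AP-1 or NF-kB match. TGACGTCA, TATAAA, TTCCNGGAA (a special case of the STAT motif) and the serum response element were in none of the 11 windows (1.55%, 12.4%, 0.913% and 1.47% of all). The bases just after the RefSeq start lay in an annotated transcript of the gene for every window except those of Socs3 and Ctf1. The starts of these 2 genes, and the positions of their motifs, are therefore less certain. These are matches of letters in a window, and binding was not measured.

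Among the receptor genes, Il6st, which encodes gp130, was the most abundant family gene in every library and rose. It lies on the plus strand of chromosome 13 at 112464070 to 112510086. Its level was 25.1, 29.2 and 28.6 FPKM in control and 34.7, 38.6 and 37.5 FPKM in shGDF11, from 4369 to 5409 and 6334 to 7010 reads. All shGDF11 libraries exceeded all controls, and the mean was 133.7% of control. The log2 fold change was 0.41 ± 0.0782 (SE; limma adjusted p = 0.00939).

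Lifr, which encodes the LIF receptor chain that pairs with gp130, rose by a similar amount. It lies on the plus strand of chromosome 15 at 7090614 to 7197489. The controls were at 3.58, 4.62 and 4.14 FPKM and the shGDF11 libraries at 5.56, 6.02 and 5.53 FPKM. The groups did not overlap, and shGDF11 stood at 138.6% of control (log2 fold change 0.43 ± 0.0983 SE; limma adjusted p = 0.0183). The call was lost without shGDF11 replicate 1 (limma adjusted p = 0.0528), replicate 2 (0.0741) or replicate 3 (0.054), where the log2 fold change was 0.45, 0.40 and 0.45.

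Osmr, the oncostatin M receptor chain encoded on chromosome 15 (6813577 to 6874969, minus strand), was not called. It was at 5.73, 7.34 and 7.52 FPKM in control and at 6.43, 7.01 and 6.59 FPKM in shGDF11. The shGDF11 values lay inside the control range, with a log2 fold change of -0.03 (95% interval -0.28 to 0.23; limma adjusted p = 0.872), and its sign turned after rescaling to TPM. Il6ra, the IL-6 binding chain encoded on chromosome 3 (89864059 to 89913196, minus strand), was at 0.619, 0.757 and 1.01 FPKM in control and at 0.577, 0.495 and 0.552 FPKM in shGDF11. The shGDF11 libraries lay below the controls, but control replicate 1 was close to them, and the gene was not called (log2 fold change -0.31, 95% interval -0.71 to 0.10; limma adjusted p = 0.226). An antisense gene, Gm42809, lies opposite 2.8% of the exon bases of Il6ra. Groups without overlap were found for 6 of the 9 tested family genes and for 45.8% of all genes tested.

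Socs3, the feedback inhibitor and a direct target of STAT3, stayed within the same range in both groups. It spans 117966079 to 117970047 of chromosome 11, minus strand. Its level was 10.3, 9.57 and 8.71 FPKM in control and 9.62, 9.04 and 9.46 FPKM in shGDF11, from 411 to 467 and 428 to 457 reads. All shGDF11 values lay between the lowest and the highest control. The log2 fold change was -0.02 (95% interval -0.20 to 0.16; limma adjusted p = 0.877), and its sign turned after rescaling to TPM (0.07).

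**Figure D2:**
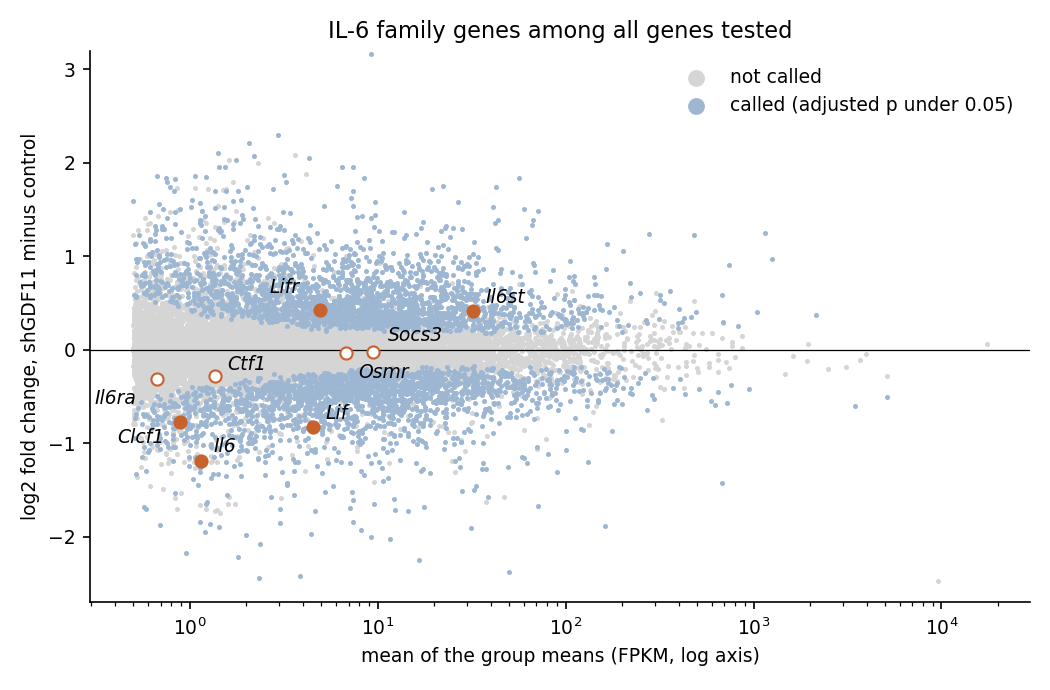
Log2 fold change (shGDF11 minus control) against the mean level in FPKM on a log axis for all 15418 genes tested, called genes in blue and others in grey, with the 9 tested family genes in orange (filled where called). Il6, Lif and Clcf1 lie among the lower calls, Il6st and Lifr among the higher, and Osmr and Socs3 close to 0.

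The order of levels within the family was compared in FPKM, which is per length. In control, Il6st (27.6 ± 2.25 FPKM) was followed by Socs3 (9.52 ± 0.783), Osmr (6.86 ± 0.983), Lif (5.97 ± 0.585) and Lifr (4.12 ± 0.518). Of these neighbours only Osmr and Lif overlapped between libraries. Il6, Ctf1, Clcf1, Il6ra and Il11 followed at 1.79 to 0.529 FPKM, each overlapping the next. In shGDF11, Il6st (36.9 ± 1.98 FPKM), Socs3 (9.37 ± 0.299), Osmr (6.68 ± 0.3), Lifr (5.70 ± 0.277) and Lif (3.14 ± 0.292) formed the upper part with no overlap between neighbours. Below them Ctf1 was at 1.198 FPKM and Il11 at 0.193 FPKM, and between these Il6ra, Clcf1 and Il6 (0.541 to 0.505 FPKM) overlapped their neighbours among the 3.

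Ratios of levels within a library do not depend on how the library was scaled. The level of Lif divided by that of Lifr was 1.83, 1.29 and 1.30 in control and 0.601, 0.466 and 0.593 in shGDF11, so the ligand transcript stood above its receptor transcript in each control and below it in each shGDF11 library. The ratio of Il6 to Il6ra was 3.01, 1.67 and 2.22 in control and 1.04, 0.559 and 1.16 in shGDF11, with no overlap. Lifr relative to Il6st stayed in one range, at 0.143, 0.158 and 0.145 in control and 0.160, 0.156 and 0.147 in shGDF11. Osmr relative to Il6st was lower in every shGDF11 library, at 0.229, 0.251 and 0.263 in control against 0.185, 0.182 and 0.176. The same held for Osmr relative to Lifr, at 1.60, 1.59 and 1.81 against 1.16, 1.16 and 1.19. Osmr was thus lower relative to both other chains in each shGDF11 library, while the ranges of Lifr relative to Il6st overlapped. These ratios combine values already given and were not tested.

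**Figure D3:**
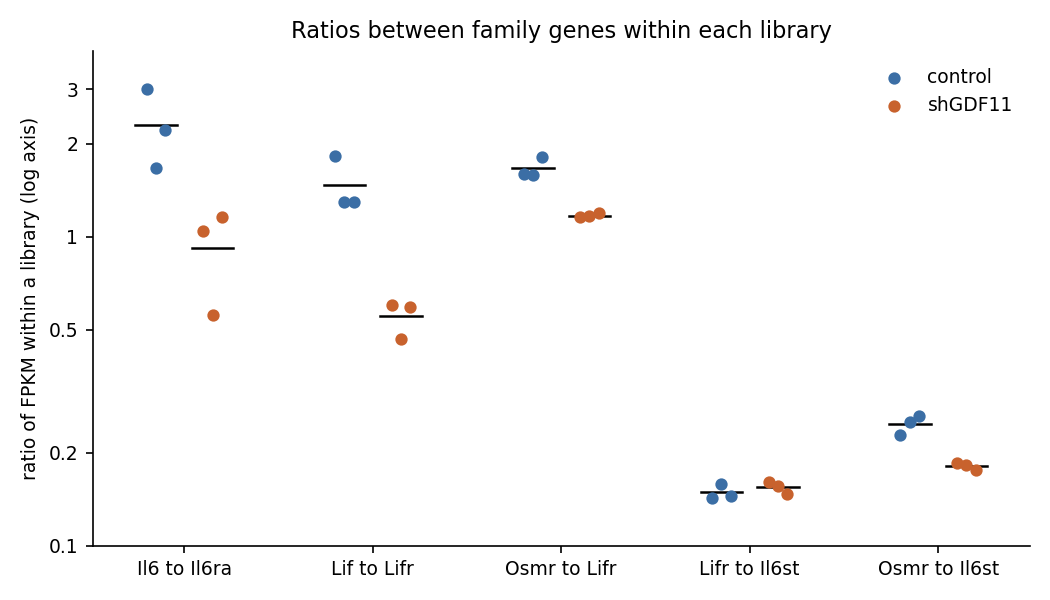
Ratio of the FPKM values of pairs of family genes within each library on a log axis, with 1 point per library (control blue, shGDF11 orange) and the group mean as a black line. Lif to Lifr lies between 1.29 and 1.83 in control and between 0.466 and 0.601 in shGDF11, whereas Lifr to Il6st overlaps between the groups.

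Other receptors and ligands of the family were not called. Of 5 other receptor genes 3 were tested and 0 called by limma (0 also by limma voom, and 0 at an unadjusted p under 0.05). Il11ra1, the alpha receptor of IL-11, was well expressed at 14.1 ± 0.6 FPKM in control and 13.3 ± 0.72 in shGDF11 (limma adjusted p = 0.379). Cntfr, the alpha receptor through which Clcf1 acts, and Il27ra were near the filter, at 0.572 and 0.624 FPKM in control and 0.456 and 0.468 in shGDF11 (limma adjusted p = 0.588 and 0.478). Of 7 other ligand genes 1 passed the filter and was not called (0 called also by limma voom, and 0 at an unadjusted p under 0.05). Osm, the ligand of OSMR, had 0, 1 and 1 reads in control and 3, 1 and 2 in shGDF11, so its level could not be compared at this depth.

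Of 14 signal transducers downstream of gp130, all tested, 5 rose and 1 fell (median change 0.04, log2), against 14.4% higher and 13.1% lower among all genes tested. Jak1, the kinase bound to gp130, rose the most, from 15.005, 16.5 and 15.3 FPKM to 28.6, 29.1 and 26.8 FPKM, a log2 difference of 0.83 ± 0.0639 (SE; adjusted p = 0.000426 by limma). The libraries of each group lay close together, and the groups were far apart. Ptpn11, the phosphatase SHP2 that links gp130 to the RAS pathway, rose from 22.4 ± 1.18 to 31.4 ± 1.1 FPKM (limma adjusted p = 0.00231). Sos1, a RAS activator, rose from 4.83 ± 0.595 to 7.77 ± 0.302 FPKM (limma adjusted p = 0.00347). The other calls, named after their values were seen, were a small rise of Stat3, from 34.95 ± 0.971 to 39.8 ± 0.248 FPKM (limma adjusted p = 0.0358), and a fall of Stat5a (limma adjusted p = 0.0137). Stat3 was called in 8 of 15 alternatives (limma adjusted p from 0.0333 to 0.116), and the call was lost without any 1 library other than control replicate 1. The other JAK genes, Jak2 and Tyk2, were not called. Without 1 library the rises were 4, or 7 without control replicate 1, and without shGDF11 replicate 3 no transducer was called as lower.

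Of 14 negative regulators and receptor-shedding proteases 3 were higher and 2 lower, shares near those of all genes tested (14.4% higher and 13.1% lower), with a median change of 0.08 (log2). Socs5 and Socs2, relatives of Socs3, rose from 8.08 ± 0.457 to 10.96 ± 0.239 FPKM (limma adjusted p = 0.00446) and from 3.96 ± 0.16 to 5.13 ± 0.157 FPKM (limma adjusted p = 0.013). Pias1, an inhibitor of STAT proteins, rose from 5.59 ± 0.656 to 7.34 ± 0.347 FPKM (limma adjusted p = 0.0264). Adam10, a protease that can shed the IL-6 receptor, fell from 40.2 ± 1.63 to 31.5 ± 1.79 FPKM (limma adjusted p = 0.00882), and its relative Adam17 was not called (limma adjusted p = 0.463). Socs6, named after its values were seen, fell by 0.23 on the log2 scale. Socs1, the closest relative of Socs3, was not called. The calls were lost for Socs2 without shGDF11 replicate 1 or 2, for Pias1 without control replicate 2 or any 1 shGDF11 library, for Socs6 without any 1 library other than control replicate 1, and for Adam10 after rescaling to TPM (limma adjusted p = 0.0715). The 3 rises were 1 without shGDF11 replicate 1 or 2. The 2 falls were 1 without control replicate 2, control replicate 3 or any 1 shGDF11 library, and after rescaling to TPM 4 rose and 0 fell.

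Genes known as STAT3 targets were lower or not called. Of 20 listed, 19 were tested, 9 fell by limma and none rose (0 also by limma voom, and 0 higher at an unadjusted p under 0.05). Among all genes tested 13.1% were lower and 14.4% higher. The list was chosen with earlier results of these data known, so setting it against all genes is no independent test. The median change of the list was -0.40 (log2), against 0.01 over all genes, and 10 were not called. Over the omissions of 1 library the falls ran from 7 to 12. Hp, the acute-phase protein haptoglobin, was at 6.34, 5.60 and 6.49 FPKM in control and 2.69, 2.28 and 3.05 FPKM in shGDF11, a log2 difference of -1.07 ± 0.11 (SE; adjusted p = 0.00106 by limma). The groups were far apart, as they were for Lcn2, a secreted iron-binding acute-phase protein (log2 fold change -1.46; limma adjusted p = 0.000127). The other falls, named after their values were seen, were those of Saa3, Junb, Il4ra, Mcl1 and Ccnd1. Of these, Mcl1 lost its call without any 1 shGDF11 library and Ccnd1 without control replicate 2 or shGDF11 replicate 1 or 2, and both after rescaling to TPM. Fos, an AP-1 subunit, fell from 5.63 ± 0.073 to 3.11 ± 0.324 FPKM and Icam1, an adhesion molecule, from 11.5 ± 1.19 to 7.22 ± 0.214 FPKM (limma adjusted p = 0.0014 and 0.00231). Myc, Irf1, Bcl2l1, Pim1 and Cebpd, all also known as STAT3 targets, were not called, as Socs3 and Osmr were not. Lcn2, Icam1 and Fos are known to respond to NF-kB or other stress signals as well, and STAT3 activity was not measured.

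**Figure D4:**
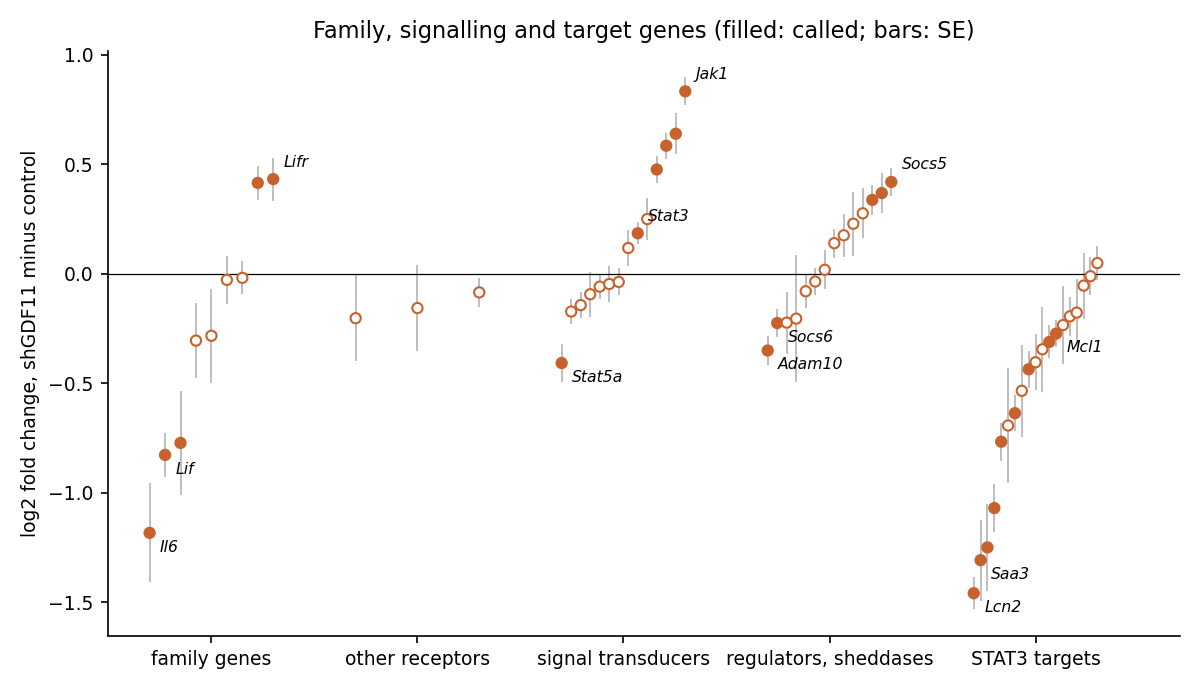
Log2 fold change (shGDF11 minus control, bars SE) of each tested gene of the family and of 4 lists of other receptors, signal transducers, negative regulators with sheddases, and STAT3 targets, filled where called. All called STAT3 targets lie below 0, whereas the signal transducers hold 5 calls above 0 and 1 below.

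Genes with the profile nearest to that of Il6 were looked up among 7733 tested protein-coding genes of at least 5 FPKM in either group mean. The measure was the root mean square difference over the 6 libraries between log2(FPKM + 0.5) values centred on each gene's mean. The nearest were Otud1, a deubiquitinase (difference 0.154), Hp (0.167) and Fcgr3, an Fc receptor of myeloid cells (0.209). Otud1 was at 14.4 FPKM in control and 5.94 in shGDF11, and Fcgr3 at 6.67 and 3.49 FPKM. The added 0.5 FPKM damps the change of Il6 more than that of these more abundant genes. The match is therefore to the damped change of Il6 (log2 -1.18), not to that by limma voom (-1.85). For Socs3 the nearest were Smtn and Slco3a1 (0.0219 and 0.0255), at 17.1 and 6.82 FPKM in control and 16.8 and 6.62 FPKM in shGDF11.

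Among the controls, replicate 1 stood apart from the others in the family. It had the lowest control value of Il6st, Lifr, Osmr, Il6ra, Ctf1 and Il11 and the highest of Lif, Clcf1 and Socs3. Over all genes its reads differed from those of the other controls by a chi-square of 16.3 and 22 per degree of freedom, against 6.22 between control replicates 2 and 3. Without it the log2 fold changes were -1.15 for Il6, -0.76 for Lif, 0.35 for Il6st and 0.35 for Lifr, and these 4 genes were still called (limma adjusted p from 0.00412 to 0.0277).

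**Figure D5:**
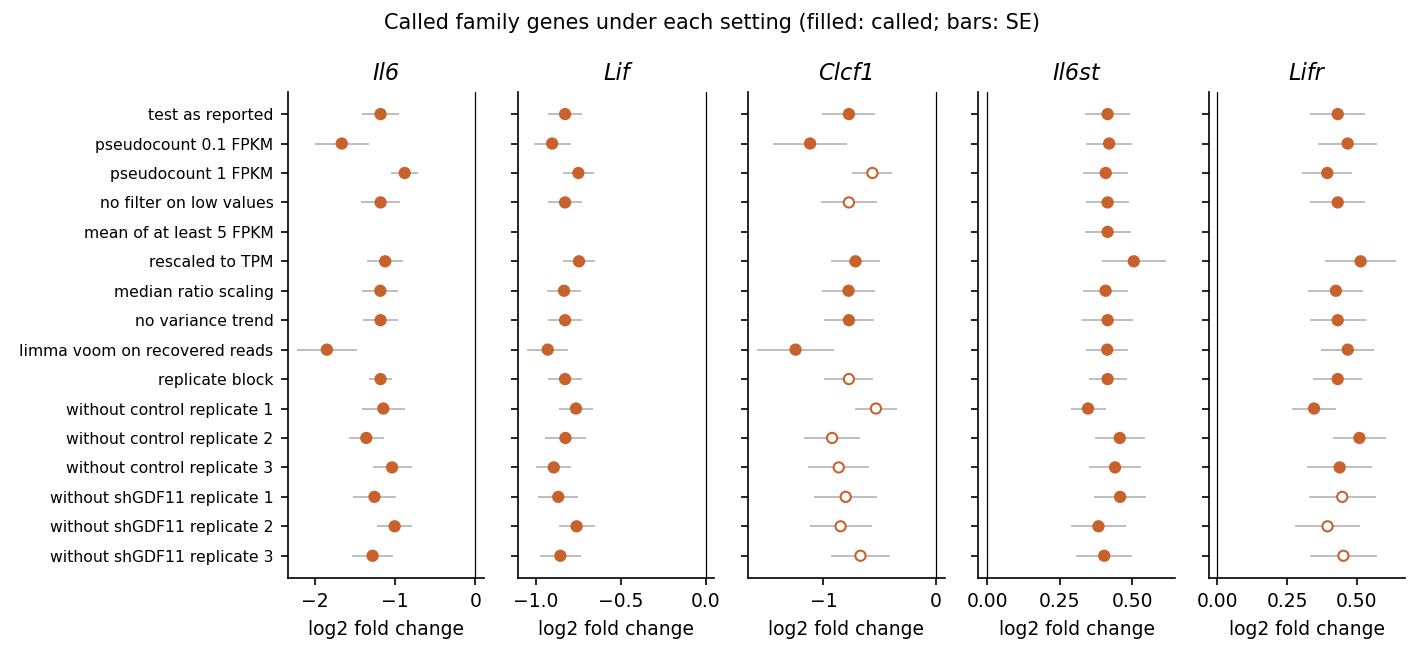
Log2 fold change (shGDF11 minus control, bars SE) of the 5 called family genes as reported and under each alternative setting, filled where the adjusted p was under 0.05. Il6, Lif and Il6st were called wherever they were tested, Lifr was not called without any 1 shGDF11 library, and Clcf1 was called in 5 of 14 alternatives.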

How the data were processed

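Total RNA of 6 samples was sequenced on an Illumina HiSeq instrument, per the labels' protocols. The deposited table gives FPKM values that the authors computed for 54532 genes. Tools named in the submitters' processing notes are HISAT2 2.0.5, CASAVA 1.8 and featureCounts 1.5.0-p3, whose roles the notes do not state, and the genome is given as mm10 (GRCm38). The sources used here give neither strand setting nor annotation release, so reads of a gene and of one overlapping it on the opposite strand may be mixed. Per the file headers the table also holds gene length, with other columns for name and position. FPKM times length was a whole multiple of 1 step per library (100% of positive values within 0.05 of a whole read), which gave the reads. The table listed 27 names as dates, which were restored from identifiers. Samples were grouped by their treatment label.

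limma 3.58.1 (R 4.3.3; two-sided, eBayes with trend) was run on log2(FPKM + 0.5) for genes whose mean of all libraries reached 0.5 FPKM. Overlapping exons came from GENCODE annotation of GRCm38. Promoter windows came from RefSeq (GRCm38.p6). The members and lists were chosen with earlier results of these data known. Named were Gdf11, the 10 members, up to 4 genes of each pathway list with the smallest p, the 3 nearest profiles of Il6 and Socs3, and the 2 most abundant markers of each cell type; a few genes that this rule names are not reported here. Alternatives were the pseudocount, filter, scaling, variance model, limma voom on reads, the omission of each library and a replicate block. On simulated reads for shGDF11 against control (15541 genes), the test recovered 74.7% of 194 genes changed 2-fold, with 12 false calls. The simulation gave every gene the same dispersion, had no library standing apart and changed few genes. Its figures may thus not hold for these data. Intervals on reads cover counting error only.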

Additional observations from a re-analysis of the deposited data

How the results depend on the processing

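Over all genes the number of calls was 4253, and it ran from 2328 to 4233 when 1 library was left out. The count of family genes called lower was 3, and 2 without any 1 library. The count called higher was 2, and 1 to 2 without 1 library. At a mean of at least 5 FPKM, 3 family genes were tested, with 0 lower and 1 higher (Il6st), because Il6, Lif, Clcf1 and Lifr lie below that filter. Il6, Lif and Il6st were called in every alternative in which they were tested (14, 14 and 15). Clcf1 was called in 5 of 14 and Lifr in 11 of 14. The sign turned for genes that were not called. After rescaling to TPM the log2 fold change was 0.0564 for Osmr, 0.0683 for Socs3 and 0.00318 for Il11ra1. Without 1 library Osmr ran from -0.144 (control replicate 1) to 0.0376 (control replicate 3), with 0.0215 without control replicate 2, and Socs3 from -0.0779 (control replicate 3) to 0.0352 (control replicate 1), with 0.00544 without shGDF11 replicate 2. With the replicate number as a block, 3223 genes were called. The block left 2 family genes lower and 2 higher, and Clcf1 had a limma adjusted p of 0.0631. The numbers did not pair the libraries: deviations from the group means of same-numbered libraries correlated at 0.0153, 0.0149 and -0.0521, and not every library correlated best with its own number. The low reads of Il6, Il11 and Clcf1 limit their precision. Changes in Il6 ran from -0.88 with a pseudocount of 1 FPKM to -1.85 by limma voom, and those of Clcf1 from -0.53 to -1.25; the pseudocount damps low genes by construction.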

Other observations

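Ligands and receptors of the family outside the filter gave few reads in all libraries. Ctf2, the neighbour of Ctf1 on the other strand, had 6, 3 and 6 reads in control and 0, 7 and 7 in shGDF11. Ebi3, a subunit of IL-27, had 4, 3 and 0 reads in control and 1, 3 and 3 in shGDF11. Cntf, the ciliary neurotrophic factor gene, had 2, 0 and 1 in control and 3, 0 and 6 in shGDF11. Il31ra had 2, 6 and 6 in control and 2, 9 and 3 in shGDF11. Il31 had no read in control and 0, 2 and 3 in shGDF11, and Il27 had 1 read in all 6 libraries. At these depths no direction can be given for any of them.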
